A study of Mus musculus with 8 samples.

Results

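Annexin A2, the product of the gene deleted in this study, was examined together with the genes of its S100 and AHNAK partners in mouse calf muscle. The set was a list of 6 genes, taken by Ensembl row ID with the symbols that the list assigns to them: Anxa2, S100a10, S100a11, S100a4, S100a6 and Ahnak. Of the 6, 5 had a row among the 17352 rows of the expression table, and S100a11 was not analysed here. RNA came from the gastrocnemius, a fast-twitch muscle, of the left hindlimb of C57BL/6 mice aged 24 weeks. There were 4 wild-type mice and 4 with the genotype Anxa2 knockout, with 1 array per mouse and samples numbered 1 to 4 in each genotype as biological replicates. The labels state neither the sex of the animals nor how the allele was made, and the exons read by the Anxa2 probes are not known here.

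Annexin A2 is a cytosolic protein that binds acidic phospholipids when calcium rises. It pairs with S100A10, also called p11, an S100 protein that does not need calcium to bind, and a dimer of S100A10 joins a pair of annexin A2 molecules into a complex on the inner face of the plasma membrane. AHNAK, a very large scaffold protein, docks on that complex, and in muscle annexin A2 and AHNAK are both found with dysferlin, which takes part in resealing torn fibre membranes. Without annexin A2 the S100A10 protein is known to be degraded, a step after transcription that an RNA array does not see. S100A4, S100A6 and S100A11 are calcium-binding relatives that also bind annexins. In muscle, annexin A2, S100A4 and S100A6 are known from fibroblasts, macrophages and vessel cells. In whole muscle, fewer cells of a type and less RNA per cell cannot be told apart.

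The values are RMA log2 expression values as deposited, so a difference of 1 is a 2-fold change, and the level of one row cannot be set against that of another. Array medians ran from 4.95 to 5.09. Wild type replicate 4 stood apart from the rest, with a mean correlation with the other arrays of 0.978 against 0.988 to 0.991, and knockout replicate 2 shared its narrow distribution (interquartile ranges of 2.77 and 2.88 against 3.06 to 3.16). The arrays were also divided by 2 rows picked by ID, ENSMUSG00000086503_at and ENSMUSG00000069045_at, which have no gene name in the sources used here. Each was cut at the middle of its range, and both gave the same division. Side 1, as it is called here, held replicates 1 and 2 of the wild type and 3 and 4 of the knockout. Side 2 held wild-type replicates 3 and 4, plus replicates 1 and 2 of the knockout. The first row read 8.98 to 9.64 on side 1 and 3.56 to 4.07 on side 2. The second read 2.59 to 2.71 on side 1 and 8.40 to 9.05 on side 2. What the 2 sides stand for was not tested. The cell type make-up of the muscles was not analysed here, because row IDs other than the listed ones are not paired with symbols.

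Sequence upstream of the measured genes is shown for the 4 that have a promoter window in the RefSeq table of build GRCm38.p6, because some of these rows varied together from mouse to mouse while Ahnak did so less clearly. Each line gives the 250 bases before the gene's start, with matches to a TATA box (TATAAA) or an AP-1 site (TGAGTCA) on either strand in capitals.
Anxa2 (GRCm38.p6, plus strand, chr9:69453433-69453682): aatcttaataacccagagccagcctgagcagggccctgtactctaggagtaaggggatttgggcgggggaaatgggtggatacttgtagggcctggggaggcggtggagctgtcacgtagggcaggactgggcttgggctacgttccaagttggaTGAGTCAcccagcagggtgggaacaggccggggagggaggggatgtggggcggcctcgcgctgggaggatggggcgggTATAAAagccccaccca
S100a4 (GRCm38.p6, plus strand, chr3:90603520-90603769): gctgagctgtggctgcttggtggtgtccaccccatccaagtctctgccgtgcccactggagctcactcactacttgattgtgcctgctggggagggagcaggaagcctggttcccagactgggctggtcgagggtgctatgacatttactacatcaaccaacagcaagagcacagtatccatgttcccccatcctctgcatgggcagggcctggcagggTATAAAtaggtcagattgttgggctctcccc
S100a6 (GRCm38.p6, plus strand, chr3:90612644-90612893): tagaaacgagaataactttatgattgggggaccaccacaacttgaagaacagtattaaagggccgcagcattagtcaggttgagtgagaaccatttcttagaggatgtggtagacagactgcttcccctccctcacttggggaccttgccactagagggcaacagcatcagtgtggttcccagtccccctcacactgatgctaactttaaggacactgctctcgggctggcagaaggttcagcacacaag
Ahnak (GRCm38.p6, plus strand, chr19:8989034-8989283): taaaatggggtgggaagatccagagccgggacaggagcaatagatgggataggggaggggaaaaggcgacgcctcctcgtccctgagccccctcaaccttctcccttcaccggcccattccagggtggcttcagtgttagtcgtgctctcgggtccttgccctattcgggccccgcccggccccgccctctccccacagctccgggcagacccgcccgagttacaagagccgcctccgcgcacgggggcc

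The Anxa2 window held an AP-1 site 95 to 89 bases before the start and a TATA box 17 to 12 bases before it. The S100a4 window held a TATA box 31 to 26 bases before the start. Neither motif was found in the windows of S100a6 and Ahnak. Among 32851 windows of the same length, 12.4% held the TATA box and 4.46% the AP-1 site. The GC box (GGGCGG, either strand, no overlap with the other motifs here) occurred at 3 places each in the Anxa2 and Ahnak windows and was not found in those of S100a4 and S100a6, with a share of 32.7% of all windows. The only CCAAT box (CCAAT, either strand, in 33.8% of windows) lay in the S100a6 window, and the E-box CACGTG (6.02% of windows) was in none of the 4. These are matches of letters and no evidence of binding. S100a4 and S100a6 lie on chromosome 3 with S100a5 between them, S100a10 lies next to S100a11 on the same chromosome, Anxa2 is on chromosome 9 and Ahnak on chromosome 19.

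Anxa2 (ENSMUSG00000032231_at), the targeted gene, gave a lower signal in all 4 knockout mice than in the 4 wild-type mice, without overlap. The wild-type log2 values were 8.66, 8.56, 9.08 and 9.15 in replicates 1 to 4, and the knockout values 7.28, 7.15, 7.61 and 7.54. The wild-type mean was 8.86 ± 0.30 (SD, n = 4), against a knockout mean of 7.39 ± 0.22 (SD, n = 4). On the linear scale the knockout retained 36.1% of the wild-type signal (95% interval 28.1% to 46.4%). The log2 difference of -1.47 (SE 0.16) had an exact two-sided permutation p of 0.029, the smallest that 4 against 4 arrays allow. In limma, fitted over all rows, its adjusted p was 0.065, so it missed the threshold of 0.05, as did every other row (0% of rows were called lower and 0% higher). Its unadjusted p ranked 1 of 17352, where 0.818% of rows were lower and 0.732% higher at an unadjusted p under 0.05. By the size of the difference Anxa2 ranked 2. Without wild type replicate 4 and knockout replicate 2 its unadjusted limma p also ranked 2. Groups without overlap occurred in 0.703% of rows with the knockout below wild type and in 0.605% with it above. Because the deleted part of the gene is not given, the signal left in the knockout cannot be assigned to a part of the transcript.

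S100a10 (ENSMUSG00000041959_at), the direct partner of annexin A2, did not differ beyond the spread between mice. It read 8.30, 7.97, 8.34 and 9.28 in wild type and 8.05, 8.15, 8.37 and 8.45 in the knockout. The knockout values lay inside the wild-type range, and wild type replicate 4 stood 1.08 above the mean of the remaining 3. The difference was -0.22 (SE 0.24, 95% interval -0.75 to 0.32), which places the knockout level between 59.3% and 125% of wild type, with a limma adjusted p of 1.00 and an exact permutation p of 0.66. Without wild type replicate 4 the difference was 0.053, so its sign rested on that array.

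S100a4 (ENSMUSG00000001020_at), a binder of annexin A2 and of non-muscle myosin, was the most variable of the 5 rows. Its values were 6.45, 6.06, 7.50 and 8.21 in wild type and 6.70, 6.25, 7.60 and 6.76 in the knockout. The wild-type arrays alone spanned 2.15 log2 units, and the knockout arrays lay within that span. The difference of -0.23 (SE 0.44, 95% interval -1.21 to 0.76) had a limma adjusted p of 1.00 and an exact permutation p of 0.74. This interval reaches a level of 43.1% of wild type at one end and 169% at the other, so a 2-fold decrease was not excluded for S100a4. It was 0.16 without wild type replicate 4.

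S100a6 (ENSMUSG00000001025_at), also called calcyclin, had nearly equal means. Its values were 9.11, 8.76, 9.38 and 10.34 in wild type, against 9.11, 9.10, 9.81 and 9.46 in the knockout. Wild type replicate 4 again gave the highest value, 1.26 above the mean of the remaining 3. The difference was -0.028 (SE 0.30, 95% interval -0.70 to 0.64), with a limma adjusted p of 1.00 and an exact permutation p of 0.94. Without wild type replicate 4 it was 0.29.

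Ahnak (ENSMUSG00000069833_at), the scaffold, had the smallest pooled SD within genotype of the 5 rows, 0.23. In the knockout alone its SD (0.26, n = 4) was above those of S100a10 (0.18) and Anxa2 (0.22). It was below those of S100a6 (0.34) and S100a4 (0.56). Ahnak read 8.04, 7.99, 7.79 and 8.27 in wild type and 7.72, 7.62, 8.17 and 8.05 in the knockout, and the groups overlapped. The difference was -0.13 (SE 0.15, 95% interval -0.46 to 0.20) with a limma adjusted p of 1.00 and an exact permutation p of 0.46. The interval corresponds to 72.5% to 115% of the wild-type level. It is the narrowest interval among the partners.

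Of the 4 partners, 0 passed the limma threshold in either direction and 0 had groups without overlap, against 1.31% of all rows without overlap in either direction. None had an unadjusted p under 0.05, which 1.55% of rows had. All 4 had a lower mean in the knockout, as did 52.9% of all rows, and their median difference was -0.17 against -0.0085 over all rows. Without wild type replicate 4 and knockout replicate 2 the 4 differences were 0.088 for S100a10, 0.35 for S100a4, 0.38 for S100a6 and 0.044 for Ahnak, all with the opposite sign and limma adjusted p values of 1.00. The Anxa2 difference was -1.29 without them.

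**Figure D1:**
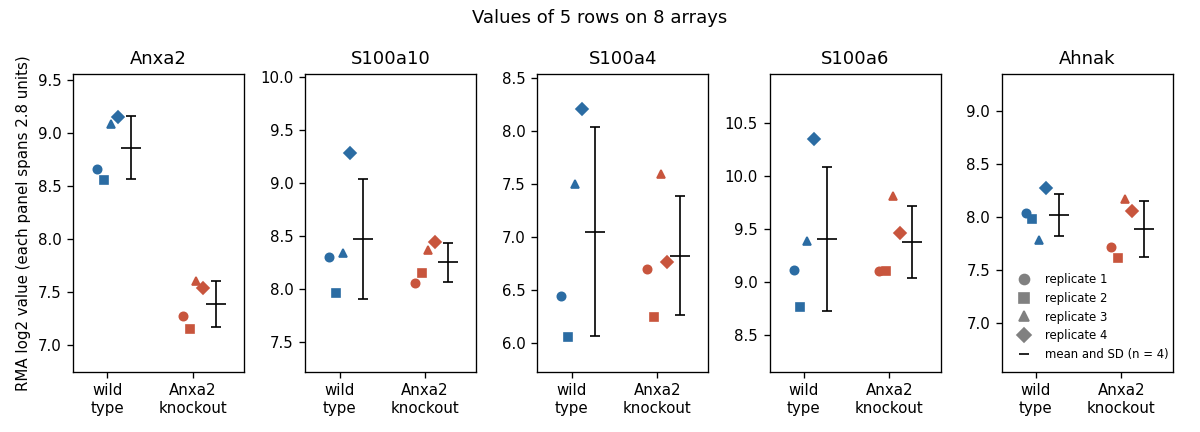
RMA log2 values of the 5 rows (one panel each, vertical axes of equal length but different start) in the 4 wild-type arrays (blue) and 4 Anxa2 knockout arrays (red). Marker shapes give the replicate number and bars the mean and SD; the groups are apart for Anxa2 and overlap for the 4 partners, with wild type replicate 4 (diamond) highest among wild type in all 5 panels.

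**Figure D2:**
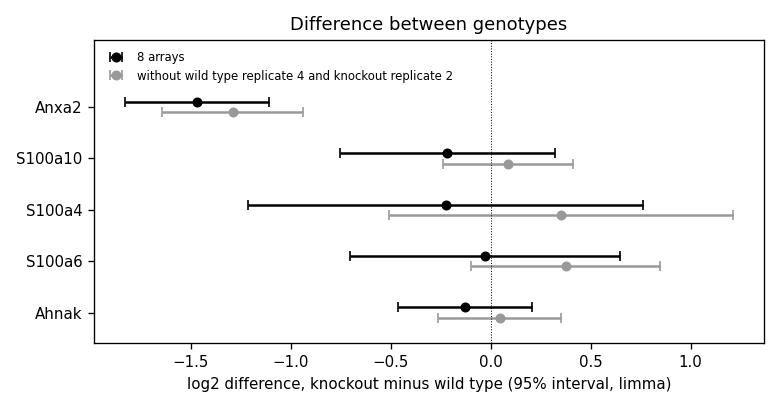
Log2 difference, knockout minus wild type, of each row with its 95% limma interval, from all 8 arrays (black) and without wild type replicate 4 and knockout replicate 2 (grey). The Anxa2 interval (-1.83 to -1.11) stays below 0 and all partner intervals cross it.

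The next question was whether the change of Anxa2 differed from that of each partner on the same arrays. For this, the log2 value of each partner was subtracted from that of Anxa2 within an array, which removes shifts common to both rows. The levels of such a difference have no meaning of their own, only its change between genotypes.

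Relative to S100a10, Anxa2 stood at 0.36, 0.59, 0.74 and -0.12 in wild type and at -0.77, -0.997, -0.76 and -0.91 in the knockout. The change was -1.25 (limma SE 0.17, 95% interval -1.63 to -0.87). The knockout values spread less (SD 0.11, n = 4) than the wild-type values (SD 0.38, n = 4), in which replicate 4 was lowest.

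Relative to Ahnak, the values were 0.62, 0.57, 1.29 and 0.88 in wild type and -0.44, -0.47, -0.56 and -0.52 in the knockout, where they had an SD of 0.054 (n = 4). That change was -1.34 (limma SE 0.15). Relative to S100a6 the change was -1.44 (limma SE 0.20, 95% interval -1.88 to -0.997), with every knockout value at or below -1.83 and every wild-type value at or above -1.19. Relative to S100a4 it was -1.24 (limma SE 0.32, 95% interval -1.95 to -0.54), and here the groups nearly met, with a highest knockout value of 0.90 and a lowest wild-type value of 0.94.

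For all 4 partners the groups did not overlap, and the exact two-sided permutation p was 0.029, also after Benjamini-Hochberg adjustment over the 4 pairs. That is the smallest p possible with 70 splits, and all 4 tests share the Anxa2 values, so they are not independent. Anxa2 alone already had groups without overlap and the same exact permutation p. The share of all rows that would separate in this way when subtracted from Anxa2 was not computed. The separation is therefore not a result particular to the partners. By the sizes of the changes, the Anxa2 row was lower by more than any of its measured partners, and these tests add no support beyond that of the Anxa2 row.

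**Figure D3:**
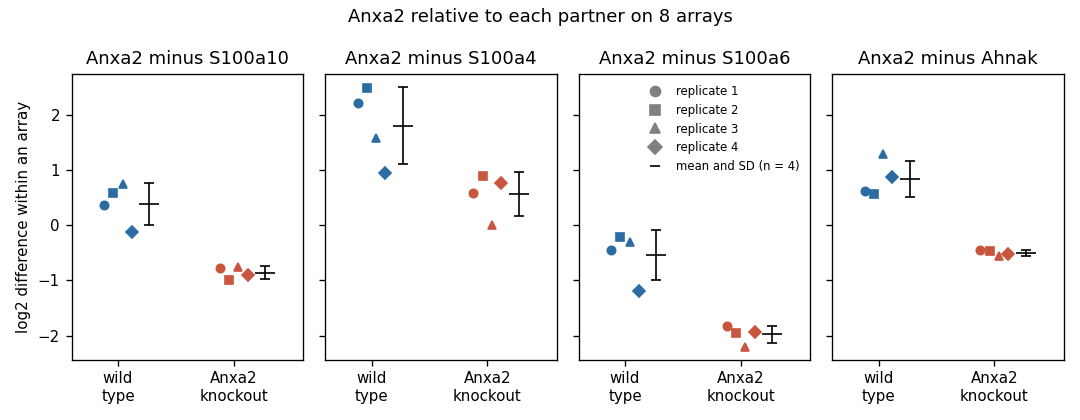
Log2 value of Anxa2 minus that of S100a10, S100a4, S100a6 or Ahnak within each array, for wild type (blue) and Anxa2 knockout (red), with marker shapes for the replicate number and bars for mean and SD (n = 4). In each panel all 4 knockout arrays lie below all 4 wild-type arrays, with the narrowest gap for S100a4.

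The 3 S100 rows varied together from mouse to mouse. Over the 8 arrays, S100a4 and S100a6 correlated at r = 0.93 (exact permutation p = 0.00067) and rho = 0.95 (exact permutation p = 0.0011). S100a10 and S100a6 correlated at r = 0.92 (exact permutation p = 0.00094) and rho = 0.95 (exact permutation p = 0.0011). For S100a10 and S100a4, r was 0.82 (exact permutation p = 0.0063) and rho 0.86 (exact permutation p = 0.011). After Benjamini-Hochberg adjustment over the 6 partner pairs, these 3 had permutation p values of 0.0028, 0.0028 and 0.013 for r and 0.0034, 0.0034 and 0.021 for rho.

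Ahnak followed the S100 rows less closely. Its r was 0.67 with S100a10, 0.66 with S100a6 and 0.55 with S100a4, with adjusted exact permutation p values of 0.072, 0.086 and 0.16. The matching rho values were 0.76, 0.81 and 0.67, with adjusted exact permutation p values of 0.044, 0.033 and 0.083.

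With each genotype's mean removed and permutation within genotypes, r kept its side of the threshold for all 6 pairs, but several rho values did not. S100a4 and S100a6 stayed at r = 0.94 and rho = 0.98 (adjusted exact permutation p = 0.010 for both). S100a10 had an r of 0.95 with S100a6 and 0.82 with S100a4 (adjusted exact permutation p = 0.031 and 0.042), with rho values of 0.86 and 0.79 (adjusted exact permutation p = 0.057 and 0.066). The rho of Ahnak was 0.52 with S100a10, 0.60 with S100a6 and 0.50 with S100a4 (adjusted exact permutation p = 0.21, 0.15 and 0.21).

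The relations were weaker by r without the arrays at the ends, whose removal narrows the range and by construction tends to lower r. Without the 2 arrays farthest from the median of the first-named row, r was 0.78 for S100a4 and S100a6 (exact permutation p = 0.054), 0.69 for S100a10 and S100a6 (exact permutation p = 0.13) and 0.49 for S100a10 and S100a4 (exact permutation p = 0.30). The rho of the first 2 of these pairs was 0.89 each (exact permutation p = 0.033), and that of S100a10 and S100a4 was 0.66 (exact permutation p = 0.175). Wild type replicate 4 was among the arrays left out each time. For Ahnak, r became 0.76 with S100a10, 0.021 with S100a6 and -0.13 with S100a4, so by r its relations with S100a6 and S100a4 rested on those arrays. The rho values were 0.83, 0.54 and 0.20, with exact permutation p values of 0.058, 0.30 and 0.71. Each side of the arrays holds 4 samples, too few for a correlation within it.

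Beside all other rows of the table, few followed S100a4 as closely as S100a6 did (45 of 17351, 0.259%), and few followed S100a6 as closely as S100a4 did (0.265%). The r of S100a10 and S100a6 was reached by 0.357% of rows with S100a6 and by 1.15% with S100a10. The r of S100a10 and S100a4 was reached by 2.05% of rows with S100a4 and by 6.17% with S100a10. A level of r of 0.8 or more was reached by 7.54% of rows with S100a10, 4.05% with S100a6, 2.61% with S100a4 and 0.772% with Ahnak.

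For Anxa2, whose values fall into separate ranges by genotype, no pooled correlation with a partner is given. The deviations of each array from its genotype mean were compared instead, with permutation within genotypes, a choice made after seeing the data. The Anxa2 deviations followed those of S100a4 at r = 0.94 (exact permutation p = 0.0035, 0.010 adjusted over the 4 partners) and rho = 0.95 (exact permutation p = 0.012, 0.035 adjusted). With S100a6, r was 0.87 (exact permutation p = 0.0052, 0.010 adjusted) and rho 0.90 (exact permutation p = 0.017, 0.035 adjusted). With S100a10, r was 0.76 (exact permutation p = 0.021, 0.028 adjusted) and rho 0.69 (exact permutation p = 0.10, 0.14 adjusted). With Ahnak, r was 0.54 (exact permutation p = 0.14) and rho 0.45 (exact permutation p = 0.25).

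Without the 2 arrays farthest from the median of the Anxa2 deviations, wild type replicates 2 and 4, r was 0.91 with S100a4, 0.84 with S100a6, 0.62 with S100a10 and 0.48 with Ahnak. With wild type replicate 4 and knockout replicate 2 left out in their place, these values were 0.91, 0.89, 0.78 and 0.074. In the deviations, 35 of 17351 rows (0.202%) followed Anxa2 as closely as S100a4 did, and 1.15% as closely as S100a6. The shares were 4.02% for S100a10 and 14.1% for Ahnak. An array above its genotype mean in Anxa2 was above it in S100a4 and S100a6 as well, and likewise below, except for knockout replicate 4 in S100a4 and wild type replicate 3 in S100a6.

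The arrays that were high and low were the same for these rows. In Anxa2, S100a10, S100a4 and S100a6, the arrays numbered 1 and 2 lay below those numbered 3 and 4 in wild type and again in the knockout. This held for 4 of the 5 rows and for 3.77% of all rows, and the opposite arrangement held for 1.48%. The 4 rows varied together, so they are not independent cases of the pattern. Ahnak had the arrangement in the knockout, while in wild type its replicate 3 was lowest. The labels give the numbers no meaning beyond naming the replicates, and the pattern was noticed in the values.

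Compared within the sides of the arrays, 2 wild-type against 2 knockout arrays on each, the partners differed in opposite directions. On side 1 both knockout arrays were above both wild-type arrays in S100a10, S100a4, S100a6 and Ahnak, and on side 2 both were below. This arrangement held for 4 of 4 partners and 4.6% of all rows, and its reverse for 1.89%. The S100 rows among the partners varied together, so the 4 are not independent cases. For S100a4 the difference was 0.93 (SE 0.32) on side 1 and -1.38 (SE 0.32) on side 2, with limma adjusted p values of 1.00 and 0.96. No partner passed on either side, with limma adjusted p values of 0.96 to 1.00. Anxa2 was lower on both, by -1.03 (SE 0.14) on side 1, where its limma adjusted p was 0.21, and by -1.90 (SE 0.14) on side 2, where it was 0.0022. The test of the difference between the sides gave a limma adjusted p of 0.49 for Anxa2. Over all rows, 0% passed on side 1 and 0.0115% on side 2. This fit by side, with 2 arrays per genotype on each, was chosen after seeing the data.

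**Figure D4:**
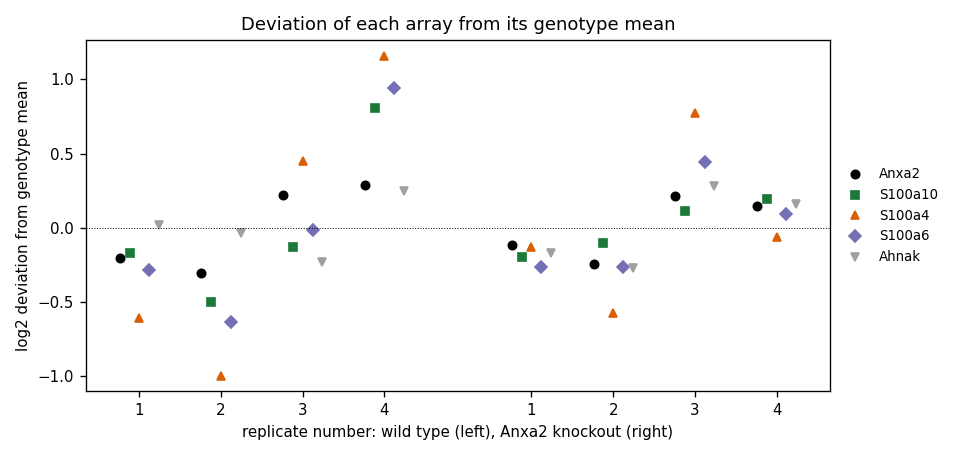
Log2 deviation of each array from the mean of its genotype for Anxa2, S100a10, S100a4, S100a6 and Ahnak, by replicate number in wild type (left) and Anxa2 knockout (right). Anxa2, S100a10, S100a4 and S100a6 lie lower in the arrays numbered 1 and 2 than in those numbered 3 and 4 in both genotypes.

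The S100 rows also varied more between mice of a genotype than most rows of the table. This spread takes in both sides of the arrays. For S100a4 the means on sides 1 and 2 were 6.25 and 7.86 in wild type, and 7.18 and 6.47 in the knockout. The pooled SD within genotype was 0.80 for S100a4, above that of 99.5% of rows. It was 0.54 for S100a6, above 98.2%, and 0.42 for S100a10, above 95.3%. Anxa2 (0.26, above 76.4%) and Ahnak (0.23, above 69.1%) lay closer to the median of 0.18 over all rows. Without wild type replicate 4 and knockout replicate 2, S100a4 (0.64, above 99.2%) and S100a6 (0.33, above 95.6%) kept high ranks, while S100a10 (0.21) was above 80.7% of rows.

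**Figure D5:**
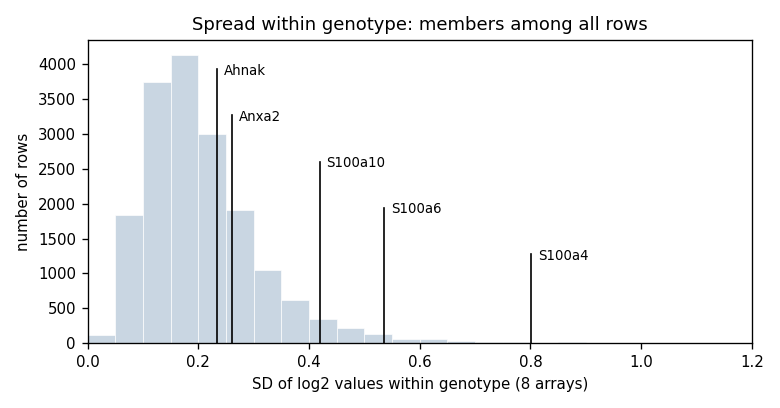
Number of rows by pooled SD of log2 values within genotype over 8 arrays, in bins of 0.05, with vertical lines at the 5 described rows. S100a10, S100a6 and S100a4 lie in the right tail at 0.42, 0.54 and 0.80, and 16 rows above 1.2 are outside the plot.

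The rows most like Anxa2 over all 8 arrays, by Pearson r, were ENSMUSG00000024235_at (0.98) and ENSMUSG00000053641_at (0.95), and the most opposed were ENSMUSG00000047423_at (-0.95) and ENSMUSG00000032245_at (-0.92). These values share the genotype difference of Anxa2 and the array structure, and are given as a description of 17351 rows. These IDs have no gene names here. Only 0.363% of rows reached an r of 0.8 with Anxa2.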

How the data were processed

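Gastrocnemius RNA (250 ng per sample) of 4 wild-type and 4 Anxa2 knockout mice was labelled with a 3'-primed Affymetrix kit, per the labels' protocols. The deposited values are log2 expression values, made by the authors with RMA in R 3.1.2, per the submitters' processing notes. The probe-set definition is not given in the sources used here, and no detection calls or depths were used. The number of arrays limits the precision.

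Each row was fitted with limma 3.58.1 in R 4.3.3 over all 8 arrays, with genotype as the only term, default empirical Bayes moderation, no low-value filter, and Benjamini-Hochberg adjustment over 17352 rows at a threshold of 0.05. The fit was tested on simulated data. Permutation tests were exact and two-sided. Same-numbered arrays correlated in their deviations at -0.072, -0.25, 0.18 and -0.24. Each such pair joined an array of side 1 to one of side 2, so this check could not tell pairing from side. The labels state no pairing, and the numbers were not taken to pair the samples. Members, gene lists and tests were chosen with earlier results of these data known, and the pattern by side of the arrays, the Anxa2 deviations and the spread ranks were added after seeing the values. All 6 members were to be named by rule, as were the 2 most and 2 least similar rows to Anxa2. The rule also covered genes of 13 fixed gene and marker lists and the 2 rows most like each partner. The lists were not analysed, because the name table pairs 0 of its 49997 genes with an Ensembl ID, and the rows most like each partner are not listed, as they have no names. Promoters come from RefSeq, with a window for 5 of the 6 genes. The window of S100a11, whose expression was not analysed, is not shown. Figures were drawn with matplotlib 3.10.9.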

Additional observations from a re-analysis of the deposited data

Results flagged for a closer look

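The genotype difference of the 4 partner rows had opposite signs on the 2 sides of the arrays, and this drew attention to them. The mean differences on side 1 and side 2 were 0.28 and -0.71 for S100a10, 0.70 and -0.76 for S100a6, and 0.10 and -0.36 for Ahnak, beside those of S100a4 given above.

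The change on side 2 minus that on side 1 was -0.98 (SE 0.38) for S100a10, -2.31 (SE 0.46) for S100a4, -1.46 (SE 0.41) for S100a6, -0.46 (SE 0.25) for Ahnak and -0.87 (SE 0.19) for Anxa2. In limma over all rows the adjusted p values of these interactions were 0.96, 0.40, 0.76, 1.00 and 0.49, so none passed, and 3 of 17352 rows did. The sides were set from the values of 2 rows, and the labels name no such groups. What the sides stand for was not tested. The same contrast sets the arrays numbered 1 and 2 against those numbered 3 and 4 across both genotypes, so the pattern by side and the pattern by number cannot be told apart.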

How the results depend on the processing

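Under 18 alternatives the Anxa2 difference kept its sign, between -1.57 and -1.29, with limma adjusted p values from 0.021 to 0.48. It passed the threshold in 5 of them: the replicate block (-1.47, adjusted p = 0.032), array weights (-1.36, 0.025), median centring (-1.47, 0.048), quantile normalization (-1.48, 0.021) and cyclic loess (-1.48, 0.041). Each of these 5 called 1 row lower, and the count of rows lower was 0 in the other 13; 0 rows were higher in all 18. The replicate block changed no call among the partners. With a block for the 2 sides of the arrays, Anxa2 did not pass (-1.47, limma adjusted p = 0.12). At an unadjusted p under 0.05, 142 lower rows became 65 to 266 and 127 higher rows 71 to 435. No partner passed in any alternative. Their differences changed sign with array weights for S100a4 (0.21) and S100a6 (0.24). Without wild type replicate 4 and knockout replicate 2 they did so for S100a10 (0.088), S100a4 (0.35), S100a6 (0.38) and Ahnak (0.044). Without wild type replicate 4 alone they were 0.053 for S100a10, 0.16 for S100a4 and 0.29 for S100a6. S100a6 was at 0.060 without knockout replicate 1 and 0.061 without knockout replicate 2. The ranges with 1 array left out were -0.38 to 0.053 for S100a10, -0.56 to 0.16 for S100a4, -0.24 to 0.29 for S100a6 and -0.22 to -0.039 for Ahnak. The cause of these changes was not tested.

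The change of Anxa2 relative to a partner ran from -1.42 to -1.14 for S100a10, -1.53 to -1.01 for S100a4, -1.66 to -1.33 for S100a6 and -1.43 to -1.19 for Ahnak with each array left out. The exact p cannot go below 0.057 with 7 arrays or 0.10 with 6, so none passed there. Without both arrays above, the changes were -1.38, -1.64, -1.67 and -1.33. In limma, adjusted over the 4, all passed with all 8 arrays (adjusted p from 1.9e-05 to 0.0028). Without both arrays the correlations were 0.64 for S100a10 and S100a4, 0.81 for S100a10 and S100a6 and 0.88 for S100a4 and S100a6, and these no longer passed after adjustment. With each array left out they ran from 0.66 to 0.87, 0.82 to 0.98 and 0.87 to 0.98, and the first 2 pairs lost their call without wild type replicate 4. Those of S100a10 and of S100a6 with Ahnak ran from 0.46 to 0.75 and from 0.43 to 0.80, passed without wild type replicate 2, and were 0.44 and 0.41 without both arrays.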
